A study of Mus musculus with 10 samples.

Results

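The genes described here encode the enzymes of conjugation, the phase of detoxification in which a cell attaches a water-soluble group to a chemical so that it can be excreted. They were chosen by symbol: the UDP-glucuronosyltransferases (Ugt), the cytosolic sulfotransferases (Sult), the glutathione S-transferases (Gst) and the microsomal glutathione S-transferases (Mgst). Of the 18193 genes that had a probe set of their own, 48 met this rule, namely 11 Ugt, 13 Sult, 21 Gst and 3 Mgst genes. The mouse RefSeq table lists 69 protein-coding genes with such symbols. The other 21 have no probe set annotated to them alone, and 11 of those share 5 probe sets with a relative.

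RNA was measured in the distal colon, from the rectum to the border with the proximal colon, of 10 mice, with 1 array for each mouse. Every mouse was a C57BL/6 animal of the Rag1-/- genotype, which lacks its own lymphocytes of the T and B lineages, and was 4 to 5 months old. At 10 weeks of age, 6 mice received naïve T cells, which bring on colitis in this host, and their colons were labelled severely inflamed (n = 3) or moderately inflamed (n = 3). The 4 control mice received regulatory T cells (Treg), so that all groups share the Rag1 deletion and a T cell transfer, and tissue was taken 2 to 3 months after the injection. Rag1 itself read 4.80 to 5.00 in inflamed and 4.94 to 5.15 in control colons on the log2 scale, and since every mouse carries the deletion this separates no groups. All levels below are log2 values of the array, on which a difference of 1 is a 2-fold change. Lower quartiles of the arrays lay between 3.82 and 3.92. A gene whose mean lay under the middle of those quartiles, 3.84, in every group is called dim, and the size of a difference between dim values is uncertain.

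The Ugt enzymes sit in the endoplasmic reticulum and transfer glucuronic acid from UDP-glucuronic acid to bilirubin, steroids, bile acids, drugs and plant phenols. The Sult enzymes are cytosolic and transfer a sulfonate group from the donor PAPS to phenols, steroids, catecholamines and thyroid hormones. The Gst enzymes, mostly cytosolic, and the Mgst enzymes of cell membranes couple glutathione to electrophiles such as epoxides and products of lipid peroxidation. In the large intestine many of them are made by the epithelium, which meets compounds from the diet and from the microbiota first.

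In inflamed colon 20 of the 48 conjugation genes were lower than in control colon, 3 were higher and 25 did not pass the test (limma, adjusted p under 0.05, Benjamini-Hochberg over all genes). Lower genes thus made up 41.7% of these genes, against 21.2% of all 18193 genes tested, and higher genes 6.25% against 18.5%. The median difference was -0.21, and 0.03 over all genes. Among them 12 were at least 2-fold lower, whereas 4.60% of all genes were both called and lower by that much. At least 2-fold higher was 1 gene, Gstp3. The share of all genes higher by that much was not computed, so this count has no background beside it. The 6 inflamed and the 4 control values did not overlap for 17 genes that lay below control and 3 that lay above, against 17.1% and 14.6% of all genes. Of the 25 genes that did not pass, 11 were dim in every group, and the 25 differences ran between -0.35 and 0.26. The RNA came from whole tissue, in which fewer cells of a type and less RNA per cell cannot be told apart.

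**Figure D1:**
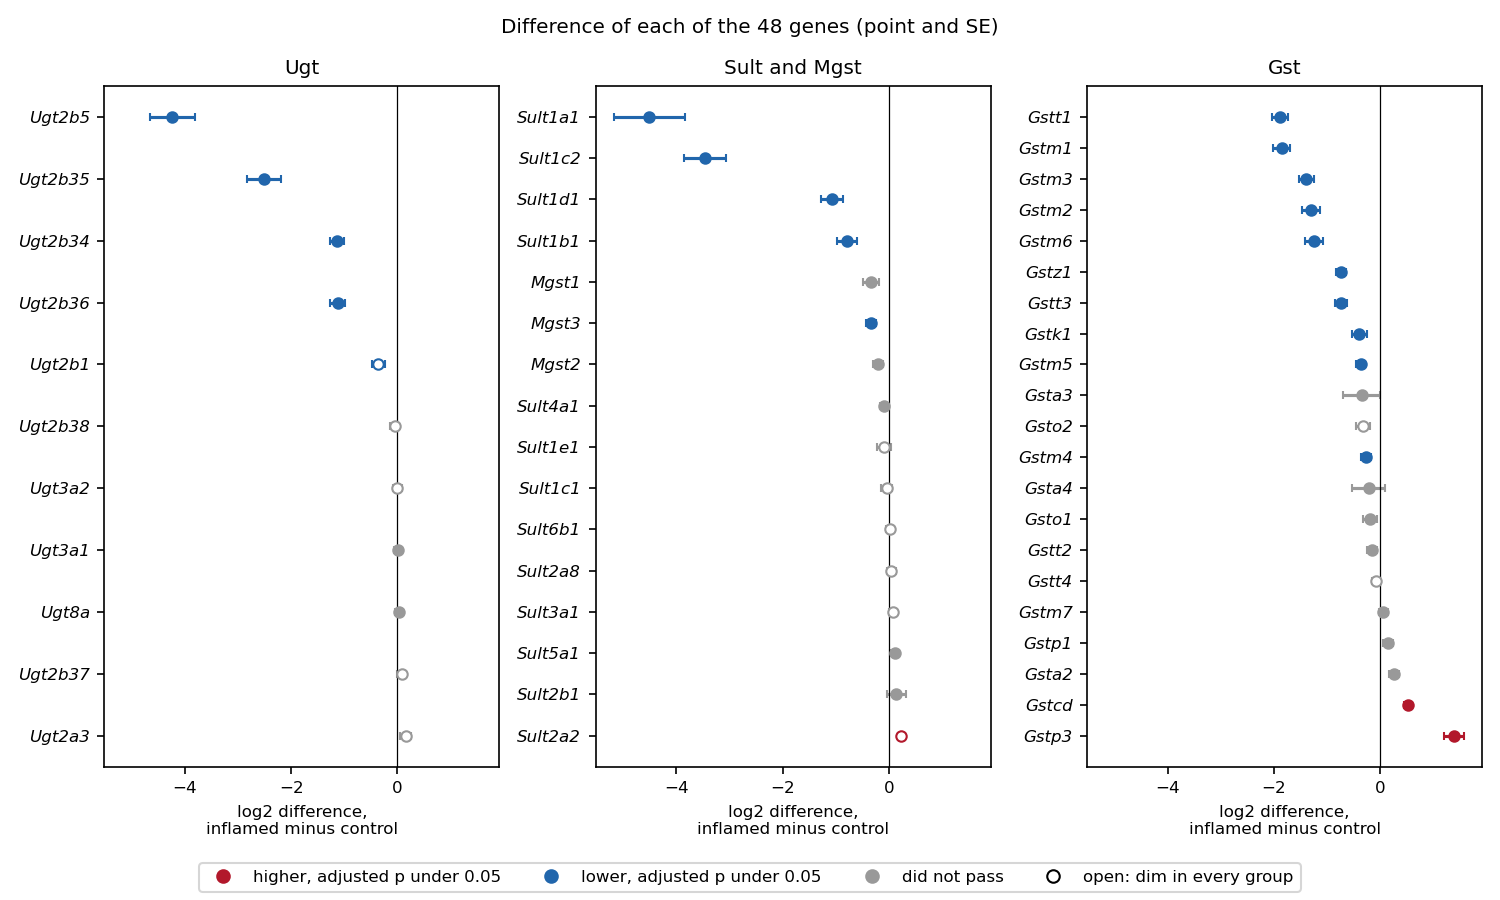
Log2 difference between inflamed (n = 6) and control (n = 4) colon for each of the 48 conjugation genes, with its standard error, in 3 panels by family (rows are genes). Blue points are lower and red points higher at an adjusted p under 0.05, grey points did not pass and open points are dim in every group; the 20 blue points include 4 Sult1 and 6 Gstm genes.

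Among the glucuronosyltransferases, 5 of 11 genes (45.5%) were lower in inflamed colon and 0 were higher, against 21.2% and 18.5% of all genes. The median difference of the family was -0.05, and 0.03 over all genes. All 5 lower genes belong to the Ugt2b group, whose enzymes act mainly on steroids, bile acids and lipids. Ugt2b5 read 2.93, 2.76 and 3.04 in the severe colons and 2.72, 3.06 and 2.86 in the moderate colons, against 8.36, 5.49, 6.89 and 7.79 in the control colons. Every inflamed value thus lay below the lower quartile of its array, while the controls were well above it and spread over nearly 3 log2 units. The difference was -4.24 (SE 0.42, adjusted p = 1.74e-05), and because the inflamed values are dim its size is uncertain.

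Ugt2b35 stayed measurable in every colon, at 6.89, 7.73 and 6.11 in severe, 7.32, 7.30 and 8.28 in moderate and 9.97, 9.68, 9.70 and 9.80 in control colons. The controls agreed closely, the inflamed colons did not overlap them, and the gene fell by 2.51 (SE 0.32), or 5.71-fold (adjusted p = 8.94e-05). Ugt2b34 read 10.82, 11.40 and 11.20 in severe, 11.42, 11.55 and 11.61 in moderate and 12.53, 12.42, 12.41 and 12.47 in control colons. All 6 inflamed values lay below the lowest control, at a difference of -1.13 (SE 0.13, adjusted p = 5.37e-05), and a probe set of this gene that was not used for it gave -1.21. Ugt2b36 averaged 4.38 ± 0.25 in inflamed (SD, n = 6) and 5.50 ± 0.22 in control colon (SD, n = 4) and fell by 1.12 (adjusted p = 7.51e-05). Ugt2b1 was called lower at -0.36, but it was dim in every group and its values overlapped.

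The remaining 6 Ugt genes did not pass, with differences between -0.05 and 0.16, and 4 of them, Ugt2a3, Ugt2b37, Ugt2b38 and Ugt3a2, were dim. Ugt3a1 and Ugt8a, of which the second makes the galactolipids of myelin, read near the quartile in both groups, at 4.35 ± 0.11 and 4.00 ± 0.14 in inflamed (SD, n = 6) and 4.34 ± 0.02 and 3.96 ± 0.05 in control colon (SD, n = 4).

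The Ugt1a genes, which include the bilirubin-conjugating Ugt1a1, are spliced from alternative first exons onto shared last exons, and the array reads them only through 3 probe sets annotated to 8 of these genes at once. In a fit of all 45037 probe sets, in which 17.0% were lower and 14.6% higher, all 3 were lower in inflamed colon without overlap. Their means were 10.99 ± 0.23, 11.91 ± 0.20 and 9.83 ± 0.33 in inflamed colon (SD, n = 6) and 11.93 ± 0.12, 12.84 ± 0.08 and 11.10 ± 0.07 in control colon (SD, n = 4). The differences were -0.95, -0.93 and -1.27 (adjusted p = 5.94e-05, 2.61e-05 and 3.49e-05, limma over all probe sets), and they cannot be assigned to single Ugt1a genes. The probe set shared by Ugt2a1 and Ugt2a2 read 2.85 in inflamed and 2.84 in control colon.

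Of the sulfotransferases, 4 of 13 genes were lower in inflamed colon and 1 was higher, or 30.8% and 7.69%. Over all genes these shares were 21.2% and 18.5%. The median difference of the family was -0.04, near the 0.03 of all genes. The 4 lower genes are Sult1 genes, whose enzymes act on phenols and related small molecules. Sult1a1, the phenol sulfotransferase, read 7.01, 8.81 and 5.79 in severe and 8.44, 7.63 and 10.33 in moderate colons, against 12.58, 12.47, 12.52 and 12.48 in control colons. The controls were nearly identical, whereas the inflamed colons spanned more than 4 log2 units, with moderate replicate 3 the least and severe replicate 3 the most reduced. The gene fell by 4.51 (SE 0.67, adjusted p = 0.000248), or 22.8-fold, and its confidence interval (95%) was correspondingly wide, -5.97 to -3.05.

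Sult1c2, a cytosolic sulfotransferase of the 1C group, read 5.17, 6.71 and 5.18 in severe, 4.83, 6.80 and 6.38 in moderate and 9.68, 9.06, 9.36 and 9.09 in control colons. Every inflamed colon lay more than 2 units below the lowest control, and the gene fell by 3.46 (SE 0.39, adjusted p = 3.95e-05), or 11.0-fold. Sult1d1, which in mice sulfates dopamine and other catecholamines, read 10.82, 11.73 and 11.17 in severe, 11.48, 11.85 and 11.96 in moderate and 12.84, 12.65, 12.28 and 12.50 in control colons. Its groups did not overlap, its difference was -1.07 (SE 0.21, adjusted p = 0.00157), and its unused probe set gave -1.25. Sult1b1, an enzyme of thyroid hormone and phenol sulfation, averaged 11.00 ± 0.40 in inflamed (SD, n = 6) and 11.77 ± 0.17 in control colon (SD, n = 4), a difference of -0.78 (adjusted p = 0.00598).

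The higher gene was Sult2a2, one of the hydroxysteroid sulfotransferases, at 0.24 (adjusted p = 0.0126) between dim means of 3.03 ± 0.05 in inflamed (SD, n = 6) and 2.78 ± 0.12 in control colon (SD, n = 4). The 8 Sult genes that did not pass differed by -0.09 to 0.14 and included 5 dim ones. Sult1e1, the oestrogen sulfotransferase, was among the dim genes, with 3.23 ± 0.19 in inflamed (SD, n = 6) and 3.32 ± 0.28 in control colon (SD, n = 4). Sult2b1, which sulfates cholesterol and is an epithelial enzyme, was well above the quartile, with 9.45 ± 0.38 in inflamed and 9.31 ± 0.18 in control colon, and differed by 0.14 (SE 0.18, adjusted p = 0.566). For Sult4a1 the used probe set gave -0.09 and a dimmer one 0.35.

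**Figure D2:**
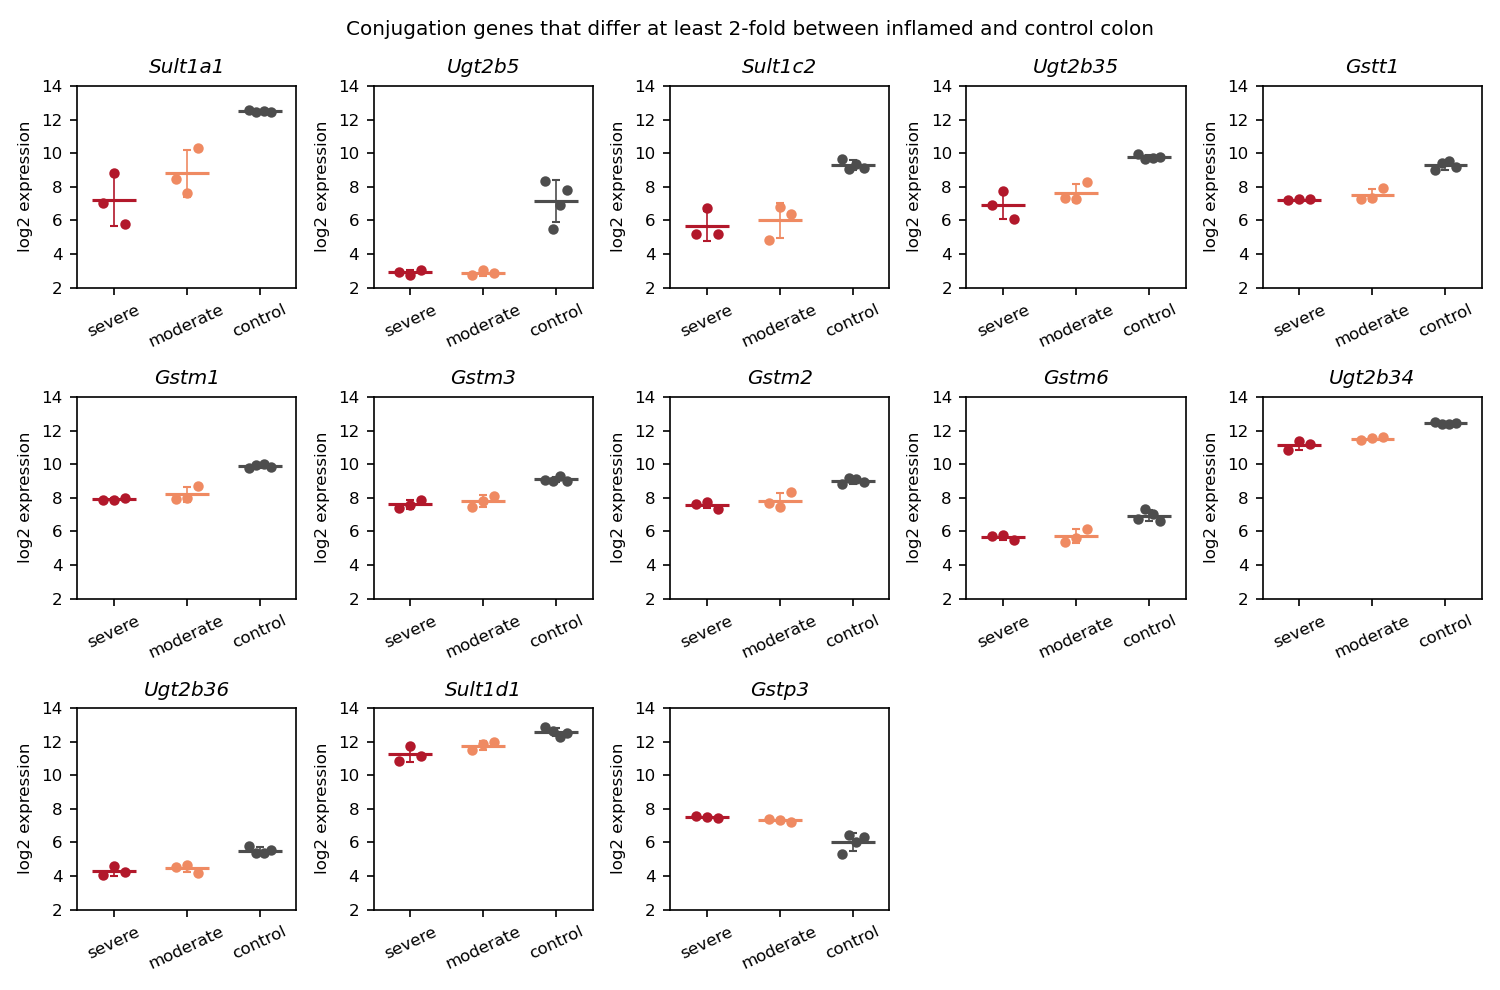
Log2 expression on each array (y axis, the same range in every panel) for the 13 conjugation genes that differed at least 2-fold between inflamed and control colon and passed the test. Points are mice in severe (n = 3), moderate (n = 3) and control (n = 4) groups, lines are means with SD; in all 13 panels the inflamed points lie wholly to one side of the controls, and Sult1a1 shows the widest inflamed and the narrowest control spread.

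The promoters of Sult1a1 and Sult1d1 are shown because, of the 12 genes that were at least 2-fold lower, these were the ones that held the core of the HNF1 site. HNF1 is a transcription factor of gut and liver epithelium that drives many conjugation genes. Its letters were searched as GTTAAT on both strands, in windows that run from 250 bases before each RefSeq transcript start to 50 after it. This core occurred in 8.93% of 56 windows of conjugation genes, for 43 of the 48 genes, and in 7.10% of all 32851 windows. The 250 bases before the start are given 5′ to 3′ along the gene (RefSeq, GRCm38.p6). Capitals mark GTTAAT, which begins at base -232 in Sult1a1 and at base -79 in Sult1d1. Further capitals in Sult1d1 mark the core bound by the Ah receptor, GCGTG on either strand. The Sult1a1 window is chr7:126676419-126676668 and that of Sult1d1 is chr5:87569007-87569256, both on the minus strand.
Sult1a1: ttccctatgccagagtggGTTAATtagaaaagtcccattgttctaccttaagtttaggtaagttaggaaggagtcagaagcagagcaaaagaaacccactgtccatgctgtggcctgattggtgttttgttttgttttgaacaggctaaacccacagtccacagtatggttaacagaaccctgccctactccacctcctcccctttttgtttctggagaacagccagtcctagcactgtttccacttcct
Sult1d1: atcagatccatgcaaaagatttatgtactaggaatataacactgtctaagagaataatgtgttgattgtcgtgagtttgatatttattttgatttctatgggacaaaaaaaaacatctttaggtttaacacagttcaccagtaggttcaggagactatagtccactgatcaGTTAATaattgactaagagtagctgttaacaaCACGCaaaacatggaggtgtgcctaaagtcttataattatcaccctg
A match is a description of letters and not a bound site. The core of the NF-kB site, searched only as the exact letters GGACTTTCC, was in 0 of the windows of conjugation genes and in 0.344% of all windows. For so rare a sequence 0 matches in 56 windows was likely from the start, so this cannot show whether these promoters lack NF-kB sites.

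Of the glutathione S-transferases 10 of 21 genes were lower and 2 higher in inflamed colon, or 47.6% and 9.52%. Over all genes these shares were 21.2% and 18.5%. The median difference of the family was -0.33, and 0.03 over all genes. The mu class (Gstm), which conjugates epoxides and other electrophiles, held 6 of the lower genes among its 7. Gstm1 read 7.88, 7.86 and 7.97 in severe, 7.91, 7.96 and 8.73 in moderate and 9.76, 9.98, 10.00 and 9.86 in control colons. The inflamed colons agreed closely except moderate replicate 3, which was higher than the other 5 and still more than 1 unit below the lowest control. Gstm1 fell by 1.85 (SE 0.16, adjusted p = 7.39e-06), or 3.60-fold, and its 3 other probe sets gave -1.87 to -0.97.

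Gstm3 read 7.38, 7.57 and 7.86 in severe, 7.43, 7.81 and 8.13 in moderate and 9.03, 9.02, 9.29 and 9.02 in control colons, a difference of -1.39 (SE 0.14, adjusted p = 1.92e-05). Gstm2 read 7.63, 7.76 and 7.36 in severe, 7.69, 7.45 and 8.34 in moderate and 8.80, 9.19, 9.09 and 8.94 in control colons, a difference of -1.30 (SE 0.17, adjusted p = 8.95e-05). Gstm6 read 5.74, 5.77 and 5.47 in severe, 5.36, 5.61 and 6.17 in moderate and 6.72, 7.34, 7.05 and 6.64 in control colons, a difference of -1.25 (SE 0.17, adjusted p = 0.000124). In all 3 genes the inflamed colons lay below every control, and moderate replicate 3 was the highest of them.

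Gstm5 fell by 0.37 without overlap (adjusted p = 0.00418). Gstm4 differed by -0.27 with overlapping values (adjusted p = 0.0457), a call that many other settings did not keep. Gstm7 depended on the probe set. The used one read 5.74 ± 0.10 in inflamed (SD, n = 6) and 5.67 ± 0.16 in control colon (SD, n = 4), and the other one read 4.77 ± 0.22 and 5.93 ± 0.14, a difference of -1.16 without overlap (adjusted p = 1.31e-05, limma over all probe sets). The mu genes are close copies of each other, and some of their probe sets are of the kinds that may bind relatives, so values of single Gstm genes can share signal.

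In the genome the 7 Gstm genes lie side by side on chromosome 3, in the order Gstm5, Gstm7, Gstm6, Gstm3, Gstm2, Gstm1 and Gstm4. The 4 genes that were at least 2-fold lower are consecutive, and the other 3 had differences between -0.37 and 0.06. The edge of this run rests on the probe set of Gstm7, since the unused one gave -1.16 and would extend it to 5 genes. On chromosome 5 the first 5 Ugt2 genes in order, Ugt2b34, Ugt2b1, Ugt2b35, Ugt2b36 and Ugt2b5, were all lower. The next measured ones, Ugt2b37, Ugt2a3 and Ugt2b38, were dim in every group, and Sult1b1 and Sult1d1, further along the same chromosome, were lower again. Gene order was taken from RefSeq.

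**Figure D3:**
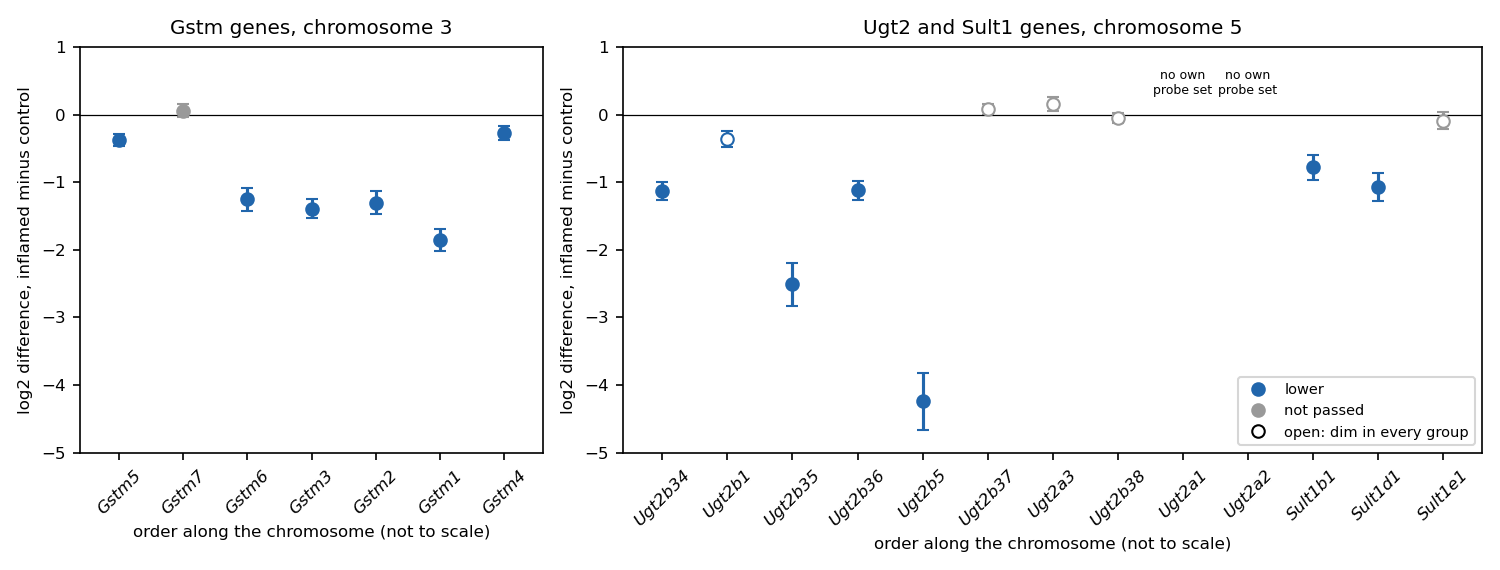
Log2 difference between inflamed (n = 6) and control (n = 4) colon with its standard error (y axis) for the Gstm genes of chromosome 3 and the Ugt2 and Sult1 genes of chromosome 5, in their order along the chromosome (x axis, not to scale). Blue points are lower, grey points did not pass and open points are dim; Gstm6, Gstm3, Gstm2 and Gstm1 form a run of differences between -1.85 and -1.25.

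The promoters of Gstm1 and Gstm5, a gene of that run and a Gstm gene outside it, are shown because they hold matches. The windows of Gstm2, Gstm3 and Gstm6, the rest of the run, and of its neighbour Gstm4 held neither core named below. Capitals mark the core of the antioxidant response element, through which NRF2 raises many Gst genes, searched as TGACNNNGC, and the Ah receptor core, searched as GCGTG, each on both strands. In Gstm5 the antioxidant core at base -42 overlaps an Ah receptor core at base -38. The windows are chr3:108017819-108018068 on the minus strand for Gstm1, from the more downstream of its RefSeq starts, and chr3:107895604-107895853 on the plus strand for Gstm5 (RefSeq, GRCm38.p6, 5′ to 3′ along the gene).
Gstm1: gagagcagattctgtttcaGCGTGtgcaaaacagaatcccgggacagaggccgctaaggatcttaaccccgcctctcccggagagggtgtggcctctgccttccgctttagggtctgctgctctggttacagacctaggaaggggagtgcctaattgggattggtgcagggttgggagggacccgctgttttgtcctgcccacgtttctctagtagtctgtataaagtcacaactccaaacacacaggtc
Gstm5: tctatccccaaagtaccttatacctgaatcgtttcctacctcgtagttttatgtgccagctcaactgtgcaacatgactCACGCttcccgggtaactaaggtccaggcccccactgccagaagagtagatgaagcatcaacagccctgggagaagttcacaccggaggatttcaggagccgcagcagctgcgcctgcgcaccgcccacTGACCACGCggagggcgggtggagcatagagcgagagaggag
The antioxidant core was found for 4 conjugation genes, Gsta3, Gstm5, Gstm7 and Mgst1, in 7.14% of their windows against 12.4% of all windows, and for 0 of the 12 genes that were at least 2-fold lower. The Ah receptor core was in 23.2% of the windows of conjugation genes and in 32.4% of all windows, and Gstm1 and Sult1d1 held it among those 12.

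In the theta class, whose enzymes act on small halogenated compounds, Gstt1 read 7.23, 7.25 and 7.25 in severe, 7.28, 7.34 and 7.92 in moderate and 8.97, 9.43, 9.53 and 9.15 in control colons. Again moderate replicate 3 was the highest inflamed colon, and the gene fell by 1.89 (SE 0.15, adjusted p = 5.35e-06), or 3.71-fold. Gstt3 fell by 0.74 without overlap (adjusted p = 0.000464). Gstt2 averaged 9.21 ± 0.12 in inflamed (SD, n = 6) and 9.36 ± 0.18 in control colon (SD, n = 4) and did not pass (adjusted p = 0.211), and Gstt4 was dim. Gstz1, the maleylacetoacetate isomerase of tyrosine breakdown, fell by 0.74 (adjusted p = 9.88e-05). Gstk1, an enzyme of mitochondria and peroxisomes, was called lower at -0.39 with overlapping values (adjusted p = 0.0457), and many other settings did not keep this call either.

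Rises were fewer. Gstp3 is a pi class gene near the more widely studied Gstp1, and Gstp2, which lies between them, has no probe set of its own. Gstp3 read 7.59, 7.51 and 7.47 in severe and 7.41, 7.31 and 7.19 in moderate colons, against 5.30, 6.45, 6.05 and 6.30 in control colons. The inflamed values were tightly grouped above all controls, at a difference of 1.39 (SE 0.19, adjusted p = 0.000127), or 2.62-fold. Gstp1 averaged 12.88 ± 0.10 in inflamed (SD, n = 6) and 12.73 ± 0.17 in control colon (SD, n = 4) and did not pass (adjusted p = 0.196). Gstcd, which shares a domain with the Gst enzymes, read 7.91, 7.64 and 7.82 in severe, 7.93, 7.77 and 7.89 in moderate and 7.26, 7.21, 7.43 and 7.32 in control colons. It rose by 0.52 (SE 0.08, adjusted p = 0.000209), and its groups did not overlap.

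The alpha class (Gsta) differed between its own and its shared probe sets. None of the 3 genes with their own probe set passed in inflamed against control colon. Gsta2 differed by 0.26 (adjusted p = 0.0651) at levels just above the lower quartile. A probe set shared by Gsta1, Gsta2 and Gm3776 was far from the quartile and rose in inflamed colon. It read 10.69, 10.60 and 10.94 in severe and 9.58, 10.94 and 10.62 in moderate colons, against 8.44, 9.07, 8.52 and 8.81 in control colons. The groups did not overlap, and the difference was 1.85 (SE 0.23), or 3.61-fold (adjusted p = 6.73e-05, limma over all probe sets), which cannot be assigned to 1 of the 3 genes. Gsta4, which conjugates the lipid peroxidation product 4-hydroxynonenal, read 8.76, 8.60 and 8.99 in severe, 6.95, 8.56 and 8.18 in moderate and 8.42, 8.54, 8.66 and 8.62 in control colons. Moderate replicate 1 was low, the groups overlapped, and the difference of -0.22 did not pass (adjusted p = 0.624). Gsta3 also overlapped, at -0.35 (SE 0.35, adjusted p = 0.454).

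The omega class and the microsomal enzymes moved little. Gsto1, which reduces dehydroascorbate and mixed disulfides, averaged 11.84 ± 0.21 in inflamed (SD, n = 6) and 12.02 ± 0.24 in control colon (SD, n = 4) on its used probe set and did not pass (adjusted p = 0.286). Its other probe set gave -0.42 without overlap (adjusted p = 0.00318, limma over all probe sets). Gsto2, the other gene of the class, was dim in every group. It differed by -0.33 in inflamed colon (adjusted p = 0.0625, limma). In severe against control colon it was called lower at -0.42 (adjusted p = 0.0487, limma). Of the microsomal enzymes Mgst3 fell by 0.33 without overlap (adjusted p = 0.0117), whereas Mgst1 at -0.34 and Mgst2 at -0.20 did not pass (adjusted p = 0.0848 and 0.0941).

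Severe and moderate colons were each set against the 4 shared controls, in a model of 3 groups. In severe colon 19 conjugation genes were lower and 5 higher, or 39.6% and 10.4%, against 18.9% and 16.1% of all genes. In moderate colon 16 were lower and 2 higher, or 33.3% and 4.17%, against 16.7% and 13.2% of all genes. The genes called higher in severe colon were Gstp3, Gstcd, Sult2a2, Gsta2 and Ugt2a3, and in moderate colon Gstp3 and Gstcd. Gsta2 was higher in severe colon by 0.35 (adjusted p = 0.033) and Ugt2a3, which was dim, by 0.32 (adjusted p = 0.0075). These comparisons share their control mice, so their calls are not independent of each other.

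The direct comparison of severe with moderate colon called 0 conjugation genes in either direction (limma), where 0% of all genes were lower and 0% higher. At an unadjusted p under 0.05 it held 5 of the 48 genes and 922, or 5.07%, of all genes. The 5 were Gsta4 at 0.88 (confidence interval 0.18 to 1.58), Ugt2a3 at 0.31, Sult1d1 at -0.52 (-1.02 to -0.03), Sult2b1 at -0.44 and Ugt2b34 at -0.39 (-0.67 to -0.10). Of the 20 genes that were lower in inflamed colon, 18 had a lower mean in severe than in moderate colon, with differences between -1.59 and 0.03. The same order held for 29 of all 48 conjugation genes, for 51.4% of all genes and for 72.0% of the 3850 genes that were lower in inflamed colon. The colonocyte marker mean lay the same way, at 10.79 to 11.67 in severe and 11.55 to 11.90 in moderate colons, and its part in this order was not tested. For Sult1a1 the difference was -1.59 with an interval of -3.21 to 0.03, and for Ugt2b35 it was -0.72 with an interval of -1.52 to 0.07. With 3 mice in each group, these intervals include differences of more than 2-fold. Among the 12 genes that were at least 2-fold lower, moderate replicate 3 was the highest inflamed colon in 9 and moderate replicate 2 in 3.

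**Figure D4:**
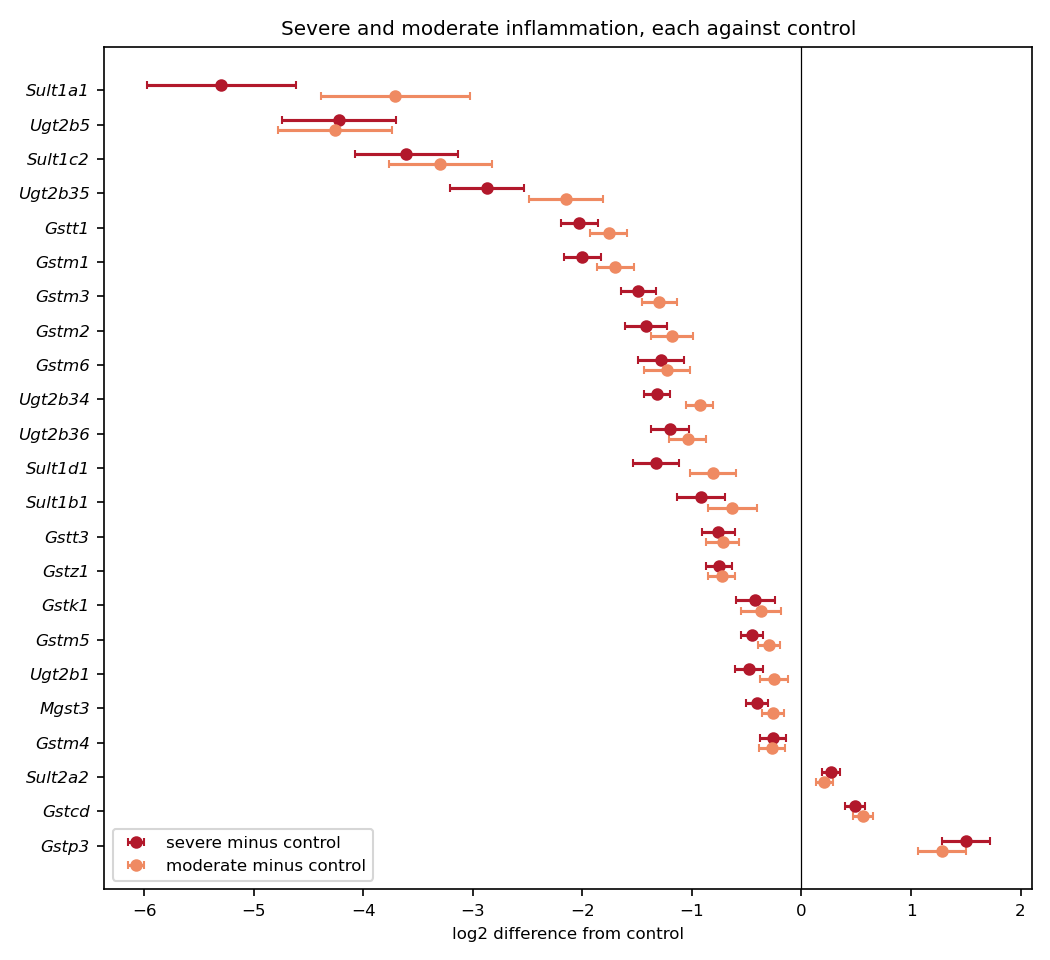
Log2 difference from control (x axis) in severe (n = 3) and moderate (n = 3) colon, with standard errors, for the 23 conjugation genes that passed in inflamed against control colon (rows). Both differences use the same 4 control mice; Sult1a1 has the widest gap between the degrees of inflammation, -5.30 in severe and -3.71 in moderate colon, and Ugt2b5 nearly none.

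The supply of cosubstrates was examined in lists of genes from general knowledge. The counts of these and the following lists stand beside 21.2% lower and 18.5% higher genes among all 18193. The lists are short, and no set test was run. For glucuronidation 1 of 4 genes was lower and 1 higher in inflamed colon. Ugdh, which makes UDP-glucuronic acid, averaged 11.01 ± 0.24 in inflamed (SD, n = 6) and 12.36 ± 0.12 in control colon (SD, n = 4) and fell by 1.36 (adjusted p = 1.03e-05), and Slc35b1, a nucleotide transporter of the endoplasmic reticulum, rose by 0.60. For sulfation 3 of 7 measured genes were lower and 0 higher. The sulfate transporter Slc26a2 differed by -1.68 (adjusted p = 0.000175), and the synthases of PAPS, Papss1 and Papss2, by -0.92 and -0.49.

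Genes of glutathione supply and turnover were mixed, with 5 of 12 higher and 3 lower, against 18.5% and 21.2% of all genes. The cystine importer Slc7a11 rose by 2.03 (6.58 ± 0.61 in inflamed, SD, n = 6, and 4.56 ± 0.15 in control colon, SD, n = 4), and Chac1, which breaks glutathione down, by 1.85. The dipeptidase Dpep1, which cleaves the products of glutathione outside the cell, fell by 2.15, and the 5-oxoprolinase Oplah by 0.50. The subunits of glutamate-cysteine ligase, the first enzyme of glutathione synthesis, did not pass, with Gclc at -0.10 and Gclm at -0.09.

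Other conjugating enzymes were lower for 8 of 12 measured genes and higher for 1, against 21.2% and 18.5% of all genes. Acsm3, an acyl-CoA synthetase of the kind that prepares acids for glycine conjugation, fell by 3.00 (adjusted p = 8.22e-05) and Mettl7a1, a methyltransferase, by 1.90, while Glyat, a dim gene, was higher by 0.20. Of the enzymes that remove conjugates, 2 of 5 were higher and 2 lower. Gusb, the lysosomal beta-glucuronidase, averaged 9.51 ± 0.33 in inflamed (SD, n = 6) and 8.25 ± 0.06 in control colon (SD, n = 4) and rose by 1.26 (adjusted p = 5.87e-05). The sulfatase-activating Sumf1 rose by 0.27, and the sulfatases Arsg and Arsb fell by 0.33 and 0.32.

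**Figure D5:**
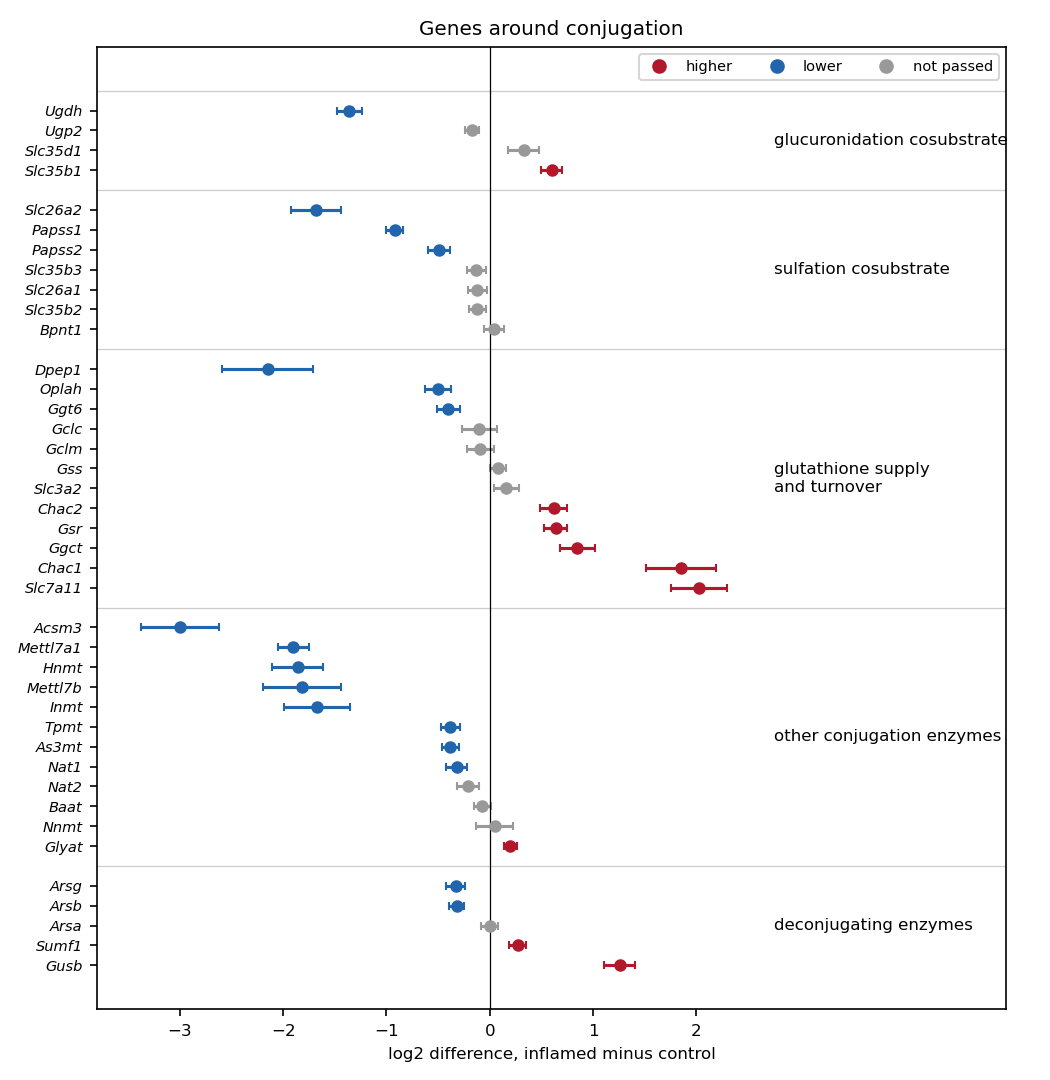
Log2 difference between inflamed (n = 6) and control (n = 4) colon with its standard error (x axis) for genes of cosubstrate supply, other conjugating enzymes and deconjugating enzymes (rows, grouped by list). Red points are higher, blue points lower and grey points did not pass; the sulfation list holds 3 lower and 0 higher genes, while the glutathione list lies on both sides of 0.

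Targets of NRF2, the factor that answers oxidative and electrophile stress, were higher for 6 of 13 measured genes and lower for 1. Of all genes 18.5% were higher and 21.2% lower. Slc7a11 at 2.03 and Pgd, of the pentose phosphate pathway, at 0.99 rose most, and Aox1 fell by 0.70. Slc7a11, Gclc and Gclm are also in the glutathione list, so the counts of these lists overlap. Nqo1 at -0.01 was among the 6 that did not pass. Among regulators of conjugation genes 2 of 15 were higher and 5 lower. The Ah receptor repressor Ahrr rose by 0.76 and the NRF2 inhibitor Keap1 by 0.43. Ppara, a fatty acid sensor, fell by 1.48 (adjusted p = 3.63e-06) and the xenobiotic receptor Nr1i3 by 0.41. Also lower were Nr3c1 at -0.40, the Ah receptor gene Ahr at -0.36 and Nfe2l2, the gene of NRF2 itself, at -0.30. The epithelial factors Hnf4a at -0.15 and Cdx2 at 0.10 did not pass.

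Markers of several cell types moved with the groups, beside 18.5% higher and 21.2% lower genes among all genes. All 5 measured T cell, 6 macrophage and 6 neutrophil markers were higher in inflamed colon, and all 8 smooth muscle markers were lower. The mean of the neutrophil list was 7.10 to 9.60 in inflamed and 4.48 to 5.33 in control colons, and that of smooth muscle 9.46 to 10.25 and 11.22 to 11.59. The 10 general epithelial markers kept a mean of 12.45 to 12.61 in inflamed and 12.39 to 12.48 in control colons, with 3 higher and 1 lower. The 11 colonocyte markers, of absorptive cells, had a mean of 10.79 to 11.90 in inflamed and 12.06 to 12.33 in control colons, with 6 lower and 3 higher. Dividing cell markers were higher for 6 of 8 genes, with a mean of 9.61 to 10.23 in inflamed and 9.24 to 9.48 in control colons, and mast cell markers for 3 of 4. Goblet cell markers were lower for 2 of 8 genes, with a mean of 12.13 to 12.95 in inflamed and 12.86 to 13.06 in control colons. Markers were also lower for 4 of 5 genes of endothelium and 3 of 6 of fibroblasts. Of 7 posterior Hox genes, read for position along the gut, 2 were lower and 0 higher. Their mean was 6.77 to 7.27 in inflamed and 6.74 to 8.10 in control colons. Whether the colons differed in the position sampled was not tested.

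Levels relative to a marker mean were added after seeing the data. Subtracting the epithelial mean of each array moves every difference by -0.11, and 24 conjugation genes were then lower and 2 higher, or 50% and 4.17%, against 28.0% and 11.4% of all genes. Subtracting the colonocyte mean moves every difference by 0.65, and 9 were then lower and 21 higher, or 18.8% and 43.8%, against 3.23% and 66.7% of all genes. The 9 were Sult1a1, Ugt2b5, Sult1c2, Ugt2b35, Gstt1, Gstm1, Gstm3, Gstm2 and Gstm6. Among the genes called before, the adjusted p of this fit followed the size of the difference, whatever the spread of the gene. Sult1a1, with an inflamed SD of 1.57, had an adjusted p of 1.53e-46 in it, against 0.000248 in the main fit (limma). Counts relative to the colonocyte mean are thus a cut on size after a common shift, not tests against each gene's own spread. The part of cell composition in these differences was not tested.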

How the data were processed

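Colon RNA of 10 mice was hybridised to Affymetrix mouse arrays, 1 per mouse, after 3′ labelling with biotin. For extraction the labels name Trizol, and the study's methods a Qiagen RNeasy kit. The authors deposited log2 values per probe set, which the submitters' processing notes trace to RMA in Affymetrix Expression Console, a method that subtracts background, equalises the arrays' distributions and summarises probes; versions are not given in the sources used here. Neither detection calls nor scan dates entered, so signal over background and batches were not examined. Precision is limited by the number of arrays.

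Of the 45101 probe sets, 34945 are annotated to 1 gene, 932 to several, 9160 to none, and 64 are controls. Each of the 18193 genes took its probe set of highest mean. Members were matched to RefSeq by gene identifier (48 of 48). Genes were tested two-sided with limma 3.58.1 (R 4.3.3; lmFit, eBayes). The p-values were adjusted by Benjamini-Hochberg over all genes and held to 0.05, in a model of 2 groups (inflamed, control) and one of 3 (severe, moderate, control). No filter on low values was set. Fitted again on all 45037 probe sets other than controls, the data gave the values of shared probe sets. Named genes are the members past the threshold that differed at least 2-fold or were higher, those behind a count of 5 or fewer, and the 2 largest rises and falls of each pathway list; other members were named by family after their values were seen. The members, gene lists and tests were chosen with earlier results of these data known, so patterns already known are not independent support. Protein sequences were not used here.

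The fits were tested on simulated data of 18193 genes, of which 200 were changed. The noise was normal and independent, with the same spread of a gene in every group. Measured spreads can differ between groups, as for Sult1a1 (SD 1.52 in severe, n = 3, and 0.05 in control colon, n = 4). The shares found below therefore need not hold for the measured data. For inflamed against control, log2 changes of 0.5, 1 and 2 were found in 61.2%, 97% and 98.5% of cases, beside 10 false calls, and for severe against moderate in 50.7%, 80.6% and 98.5%, again beside 10 false calls. Alternatives took the mean over probe sets, only probe sets without a suffix for shared sequence, genes above the quartile, median-centred or requantiled arrays, weighted arrays, another variance model, the methods' t-test run on the same values, the other design, a replicate block, each array removed singly, and expression relative to epithelial or colonocyte markers. Figures were drawn with matplotlib 3.10.9.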

Additional observations from a re-analysis of the deposited data

Results flagged for a closer look

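In 46 groups of 4 to 6 arrays, taken from the members past the threshold, an array stood apart from the others in 3, where chance gives about 1 in 20. For Gstm1, moderate replicate 3 (8.73) was the highest inflamed colon, and its gap to the next took 0.876 of the inflamed range. The same colon was highest for Gstt1 (7.92), with a gap of 0.844 of the range. For Gstm3, control replicate 3 (9.29) was the highest control, with a gap of 0.939 of the control range.

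Probe sets that several conjugation genes share entered no count of members, and 4 of the 5 differed between inflamed and control colon. The probe set of Gsta1, Gsta2 and Gm3776 was higher by 1.85, and the 3 probe sets of the Ugt1a genes differed by -0.95, -0.93 and -1.27.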

How the results depend on the processing

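Of 22 other settings, 2 were chosen after seeing the data, namely expression relative to the epithelial or to the colonocyte marker mean of each array. The count of 20 lower genes was 17 to 24 in all settings except relative to the colonocyte mean, where it was 9, with 21 higher. Subtracting that mean moves every gene alike, by 0.65 in inflamed, 0.88 in severe and 0.41 in moderate colon and by 0.47 between severe and moderate. Severe colon then had 7 lower and 26 higher (14.6% and 54.2%, against 2.54% and 80.8% of all genes), moderate colon 9 lower (18.8% against 3.01%), and severe against moderate 1 higher (2.08% against 0.632%). Against control, the adjusted p in that setting followed the size of the difference and not the gene's own spread. Those counts are therefore a cut on size. The 5 genes higher in severe colon were 3 without dim genes, 2 relative to the epithelial mean and 3 to 5 with an array left out. With an array left out, lower genes numbered 17 to 20 in inflamed, 17 to 19 in severe and 13 to 17 in moderate colon. Without control replicate 1, severe replicate 2 or severe replicate 3 the higher genes in severe colon were 3.

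Replicate numbers mark different mice. After the group means were subtracted, same-numbered arrays correlated between -0.0778 and 0.293, and differently numbered arrays between -0.311 and 0.169. The highest values were those of severe with moderate replicate 1 (0.293) and of severe with moderate replicate 2 (0.254). Whether same-numbered mice share more than a number was not tested. With the replicate block 19 genes were lower and 3 higher in inflamed colon.

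Falls smaller than these shifts change sign by construction, which says nothing about the genes. In inflamed colon they became 0.25 for Gstk1, 0.38 for Gstm4, 0.27 for Gstm5, 0.32 for Mgst3 and 0.28 for Ugt2b1. In severe colon they became 0.46 for Gstk1, 0.62 for Gstm4, 0.43 for Gstm5, 0.12 for Gstt3, 0.13 for Gstz1, 0.47 for Mgst3 and 0.40 for Ugt2b1. In moderate colon they became 0.04 for Gstk1, 0.14 for Gstm4, 0.11 for Gstm5, 0.16 for Mgst3 and 0.16 for Ugt2b1. Over all settings the 23 named differences in inflamed colon kept direction and call in 463 of 501 cases, and 33 missed the threshold. The calls of Gstk1 and Gstm4, at an adjusted p of 0.0457, were lost in many of these, including the methods' t-test with Benjamini-Hochberg adjustment over all genes (adjusted p = 0.0886 and 0.0664). Without signal over background, differences of dim genes have no certain size.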
